A study of Mus musculus and Rattus norvegicus with 11 samples.

Results

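The cytosolic ribosomal protein genes are the genes whose proteins, with the ribosomal RNAs, build the large and small subunits of the ribosome outside mitochondria. They were chosen by symbol from the mouse features: names made of Rpl or Rps and a number, with Rpsa and the stalk proteins Rplp0 to Rplp2. Pseudogene copies named with -ps and the Rps6k kinases were left out. The rule took 83 of 31053 features, 51 of the large and 32 of the small subunit. These genes held 14.04% of all mouse UMIs, the unique molecular identifiers that count captured mRNA molecules. At least 5000 UMIs were counted on 79 of them. The other 4 were paralogs, Rpl3l with 21 UMIs, Rpl10l with 27, Rpl39l with 73 and Rpl7l1 with 1308.

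Ribosomal protein mRNAs are among the most abundant in most cells, and cells make the proteins in near equal amounts because each ribosome carries about 1 of each. Most of these mRNAs begin with a short run of pyrimidines, the 5′ terminal oligopyrimidine (TOP) motif, through which growth signals set their translation together. Resting lymphocytes are small cells with little cytoplasm, and ribosomal protein mRNAs are known to take a large part of their transcripts. Several members have relatives: expressed paralogs such as Rpl22l1 and Rps27l, and many intronless copies in the genome that differ from the parent mRNA by a few bases.

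Single nerve cells were captured in droplets and sequenced with 10x 3′ libraries (version 2 of the kit), which tag mRNAs near their polyadenylated end. For mouse, sciatic nerve and brachial plexus were taken from 3 groups with 3 libraries each. These were C57BL/6 mice without disease, NOD control mice, and NOD mice labelled as lacking ICAM-1, an adhesion molecule of endothelium and leukocytes, which the series uses to study chronic autoimmune neuritis. The ages, sexes and numbers of mice and the part of Icam1 deleted are not given in the labels. Mouse nerves were digested, myelin was removed and live cells were sorted, whereas cells of the sciatic nerves of 2 naive Lewis rat libraries were taken from a density gradient without sorting. NOD control libraries 2-1 and 2-2 share a number and were summed as NOD control 2, which leaves 3 C57BL/6, 2 NOD control and 3 samples with the knockout label.

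Mouse libraries held between 571042 and 6631004 UMIs, with a median of 591 to 1530 per cell barcode. The labels do not say which libraries are separate animals, and the 3 with the knockout label may be runs of 1 sample, so every p-value here measures only the spread between these libraries. Library 1 of C57BL/6 stood apart: ribosomal protein genes took 30.4% of its UMIs, against 12.02% and 17.6% in C57BL/6 libraries 3 and 4 and 9.76% to 14.6% in the 6 NOD libraries. Mitochondrial genes took 0.972% of UMIs in C57BL/6 library 1 and 0.611% in NOD control 1, against 1.94% to 3.37% in the others. In the libraries labelled Icam1 knockout, Icam1 was counted at 248 to 262 CPM (UMIs on the gene per 1000000 UMIs), above the 44.4 to 94.5 of NOD control and 48.1 to 88.1 of C57BL/6. A 3′ tag does not report on a deletion elsewhere in the gene. A barcode sequence occurred in more than 1 mouse library 162 times among 15887.

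Cells carry the deposited cell type names, joined here into sets: nmSC, mySC, fibro, endothelial cells (EC), mural cells, myeloid cells (macrophage and monocyte classes with plasmacytoid dendritic cells) and lymphoid cells (B and T cells). The lymphoid set also held NK cell markers, at 239 to 3529 CPM per sample. Cells named nmSC were rich in fibroblast markers, above the cells named fibro. In nmSC, 4 such markers (Dcn, Col1a1, Pdgfra and Lum) summed to between 39840 and 87340 CPM per sample. The label nmSC is kept below only as the name of that set.

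Where transcription of these genes starts is shown for 8 members, since the first bases of the mRNA carry the TOP motif. Each stretch gives 25 bases before the RefSeq transcript start and 20 from the start on, 5′ to 3′ on the transcript strand (GRCm38.p6). Capitals mark the first occurrence of the letters CTTTC within 10 bases before to 15 bases after the start. Further occurrences in that window, in Rps27, Rpl35 and Rpl7a, are left in lower case.
Rplp2 (chr7:141447626-141447670, plus): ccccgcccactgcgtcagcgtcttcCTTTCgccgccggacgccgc
Rpl38 (chr11:114668555-114668599, plus): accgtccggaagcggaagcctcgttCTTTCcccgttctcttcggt
Rps27 (chr3:90213629-90213673, minus): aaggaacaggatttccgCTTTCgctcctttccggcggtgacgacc
Rpl35 (chr2:39005112-39005156, minus): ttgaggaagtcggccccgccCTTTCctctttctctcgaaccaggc
Rps10 (chr17:27635225-27635269, minus): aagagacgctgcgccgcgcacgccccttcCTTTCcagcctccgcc
Rpl7a (chr2:26910782-26910826, plus): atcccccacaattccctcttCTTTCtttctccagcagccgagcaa
Rpl22l1 (chr3:28805483-28805527, plus): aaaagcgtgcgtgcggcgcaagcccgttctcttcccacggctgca
Rps27l (chr9:66946061-66946105, plus): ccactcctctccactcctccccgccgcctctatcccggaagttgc
The first 6 hold CTTTC in that window and the paralogs Rpl22l1 and Rps27l do not. Most members searched also lacked it, while the paralog Rpl39l held it. The promoter table matched 63 members, and 15 of them (23.8%) had CTTTC in the window on the transcript strand, against 3.68% of all 27025 symbols in the table. Anywhere in the 300 bases of an entry, the letters occurred in 65.1% of the members and 37.9% of all symbols. These letters overlap no other motif searched, and a match describes the sequence and not its use.

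The share of UMIs on ribosomal protein genes differed more than 2-fold between cell types of the same sample. Lymphoid cells had the highest share in each of the 8 mouse samples: 51.3%, 25.7% and 31.5% in C57BL/6 libraries 1, 3 and 4, 23.3% and 25.5% in NOD control, and 15.7% to 16.3% with the knockout label. In nmSC the same samples had 16.2%, 7.75% and 7.12%, then 6.99% and 7.18%, then 5.86% to 6.42%. The lymphoid share was 2.45 to 4.42 times that of nmSC, higher in 8 of 8 samples by a mean of 17.7 percentage points (exact two-sided sign-flip permutation test, p = 0.00781, the smallest that 8 samples allow, adjusted p = 0.0156 over 6 comparisons). Myeloid cells (1.59 to 2.07 times, mean difference 6.19 points) and EC (1.80 to 2.27 times, 8.23 points) were also above nmSC in 8 of 8 samples, each with an adjusted p of 0.0156 in the same exact test.

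Fibro cells, whose summed fibroblast markers were lower than those of nmSC (8425 to 23560 CPM), had 1.81 to 2.15 times the share of nmSC in 5 of 5 samples. The exact test gave p = 0.0625, the smallest for 5 samples, and an adjusted p of 0.0938. The share of mySC was above that of nmSC in 4 of 7 samples, with a mean difference of 0.946 points (exact permutation, adjusted p = 0.25). In mural cells it was above by 0.873 points in 3 of 3 samples, where the exact test cannot go below 0.25. Counting error was small beside the differences of lymphoid cells, myeloid cells, EC and fibro, but not beside those of mySC and mural cells. The widest exact (Clopper-Pearson) 95% interval of a share extended 0.569 points to a side, which covers counting error only.

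**Figure D1:**
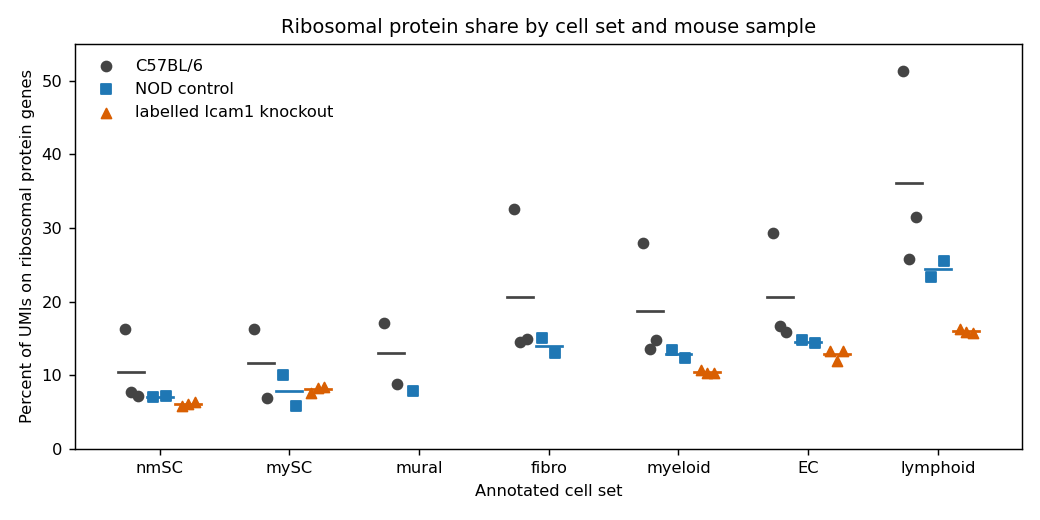
Percent of UMIs on the 83 ribosomal protein genes (vertical axis) in each annotated cell set (horizontal axis), with 1 point per sample coloured by group. Lymphoid cells lie highest in every sample, nmSC lie at 5.86% to 16.2%, and C57BL/6 library 1 is the highest point of each set.

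Gene by gene, lymphoid cells were higher than nmSC for nearly every member. Of 80 members tested with edgeR's quasi-likelihood test, with the sample as a block and Benjamini-Hochberg adjustment over 2187 genes, 78 were higher and 1 was lower. Among all genes tested, 37.6% were higher and 31.9% lower. The median log2 fold change was 1.78 over members and 0.15 over all genes. It was 1.60 over members under another scaling (RLE size factors), which shifted the median of all genes by −0.21. Rps7, a small subunit protein which in its free form can bind the p53 regulator MDM2, ran from 2115 to 6697 CPM in lymphoid cells (median 3398, 8 samples) and from 472 to 1178 CPM in nmSC (median 556). The ranges did not overlap, with a log2 fold change of 2.58 ± 0.17 (SE, adjusted p = 4.32e-08, edgeR).

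Rps15a rose by a log2 fold change of 2.36 ± 0.14, Rpl13a by 2.34 ± 0.15 and Rpsa, a small subunit protein also known as a laminin receptor precursor, by 2.33 ± 0.14 (SE, higher in 8 of 8 samples each). Rpsa ran from 1210 to 2778 CPM in lymphoid cells against 294 to 679 in nmSC. Rps27 rose by 2.46 ± 0.19, although its level differed widely between strains, from 420 to 31475 CPM in lymphoid cells and from 139 to 5843 in nmSC. All 3 stalk proteins, which recruit elongation factors to the ribosome, were higher, with Rplp2 at 2.04 ± 0.18, Rplp0 at 1.87 ± 0.15 and Rplp1 at 1.74 ± 0.15. Rpl5, Rpl11, Rpl23 and Rpl26, which can restrain MDM2 when ribosome assembly fails, were also all higher, with a median of 1.64. So were all 16 members whose loss causes Diamond-Blackfan anaemia, an inherited failure of red cell formation (median 1.85), and Rps6, the target of S6 kinase, at 2.15 ± 0.17. These role groups lay near the members as a whole, of which 78 of 80 were higher with a median of 1.78.

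The paralogs departed from the other members. Rps27l, a p53-induced relative of Rps27 with 75.0% identical bases over the shorter coding sequence, was the only member lower in lymphoid cells. It ran from 35.0 to 216 CPM there (median 147) and from 448 to 607 CPM in nmSC (median 500), with no overlap. The lowest value, in NOD control 1, rested on 1 UMI in 49 cells. It had a log2 fold change of −1.69 ± 0.20 (SE, adjusted p = 4.24e-06, edgeR). Rpl7l1, a relative of Rpl7 with a part in ribosome assembly, did not pass (0.35 ± 0.22, adjusted p = 0.168, edgeR). Rpl22l1 rose by 1.08 ± 0.13 while Rpl22 rose by 1.73 ± 0.18. The difference between these rises was not tested.

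In myeloid cells 76 of 79 members were higher than in nmSC and 0 lower, where 34.7% of 2230 tested genes were higher and 32.6% lower. By unadjusted p below 0.05 in edgeR the count was the same 76, and the DESeq2 Wald test called 1 member lower. Their median log2 fold change was 0.96, against 0.01 over all genes. Among the large rises was that of Rps9, an early-assembling protein of the small subunit, at 1.63 ± 0.12. Rps9 ran from 2901 to 4035 CPM in myeloid cells and from 1019 to 1555 in nmSC, with no overlap. The 3 members that did not pass were Rps27l (0.00 ± 0.18), Rpl7l1 (−0.14 ± 0.25) and Rpl22l1 (−0.18 ± 0.13).

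In EC 73 of 77 members were higher and 0 lower (31.7% and 29.9% of 1565 genes), with a member median of 0.86 against 0.04 over all genes, and 0.72 under RLE size factors, which shifted the median of all genes by −0.17. By unadjusted p below 0.05 the count was again 73, and DESeq2 called 1 member lower. Rps6 led at 1.38 ± 0.10, with 2628 to 3841 CPM in EC and 779 to 1585 in nmSC. Rps7 followed at 1.32 ± 0.11, Rps21 at 1.28 ± 0.12 and Rps20 at 1.23 ± 0.11. Rps27l (−0.18 ± 0.15) and Rpl22l1 (−0.20 ± 0.13) again did not pass, nor did Rpl7a or Rpl10 (0.04 ± 0.17). The comparisons of lymphoid cells, myeloid cells and EC share the nmSC values.

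**Figure D2:**
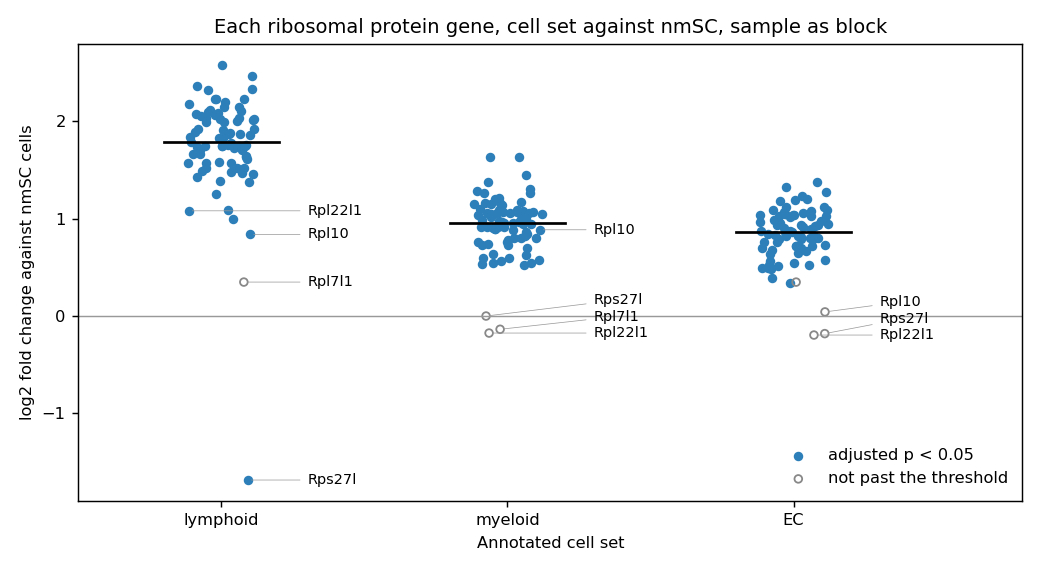
Log2 fold change of each ribosomal protein gene in lymphoid cells, myeloid cells and EC against nmSC of the same samples (vertical axis, black bars at the member medians of 1.78, 0.96 and 0.86). Filled points passed the adjusted threshold, and Rps27l is the point below 0 in lymphoid cells.

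Other genes of translation did not all follow, read against 37.6%, 34.7% and 31.7% of all genes higher and 31.9%, 32.6% and 29.9% lower in lymphoid cells, myeloid cells and EC. The listed TOP mRNAs that encode no ribosomal protein, such as elongation factors, were higher in lymphoid cells in 16 of 16 cases (median 1.63), among them Eef2 at 2.03 ± 0.15 and Eif3e at 1.98 ± 0.19. They were higher in 16 of 16 in myeloid cells (median 0.95) and in 14 of 16 in EC (median 0.69), where 1 was lower. Fau, which encodes a small subunit protein fused to a ubiquitin-like domain and which the symbol rule leaves out, rose by 2.13 ± 0.14 in lymphoid cells. Proteins of the mitochondrial ribosome, a separate machine, had 6 higher and 6 lower of 35 in lymphoid cells (median −0.02), 4 and 6 of 36 in myeloid cells (median −0.10) and 3 and 3 of 20 in EC (median 0.03). Of the nucleolar assembly factors 5 of 6 tested were higher in lymphoid cells, with Fbl, a methyltransferase of ribosomal RNA, at 1.5 ± 0.20 and Ncl (nucleolin) at 1.35 ± 0.15. Among translational regulators 2 of 6 were higher and 2 lower, near the shares over all genes. Eif4ebp1, which holds back cap-dependent translation, fell by 2.37 on the log2 scale (SE 0.26).

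The 2 rat libraries, whose 102 features of 90 symbols held 19.1% of UMIs, gave a similar order by annotated type. The shares in libraries 1 and 2 were 45.6% and 45.0% in T cells, 36.8% and 37.1% in B cells, 19.2% and 20.6% in MHC II antigen-presenting cells, and 17.4% and 18.6% in fibro. In nmSC they were 15.9% and 17.9%, and in PF4-positive myeloid cells 12.9% and 14.7%. T and B cells lay above every other type in both libraries, while PF4-positive myeloid cells lay below nmSC, unlike the myeloid set in mouse. With 2 libraries no test was made, and rat cells were not sorted.

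Between the strains, NOD control cells had far fewer UMIs than C57BL/6 cells on a small group of members, Rps18 among them, and near-identical copies of some of these genes had more. Rps18 encodes a small subunit protein at the contact with the large subunit. In nmSC, Rps18 was counted at 2642, 1512 and 1416 CPM in C57BL/6 libraries 1, 3 and 4, and at 51.4 and 45.8 CPM in NOD control. With the knockout label, which is also on the NOD background, it was at 40.5, 16.6 and 0 CPM, where 3 UMIs would be 40.5 CPM in the last. Every C57BL/6 sample lay above every NOD sample. The log2 fold change of NOD control against C57BL/6 was −5.39 ± 0.49 in nmSC (SE, adjusted p = 1.47e-06, edgeR quasi-likelihood) and −6.24 ± 0.90 in lymphoid cells (adjusted p = 0.00417).

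The last 90 of the 456 coding bases of Rps18 and of its 2 closest copies among the features are printed, because the UMIs of this family fell on different features in the strains (GRCm38 coordinates of the genes, sequences from the GENCODE M21 transcripts, 5′ to 3′). Capitals mark bases that differ from Rps18.
Rps18 (chr17:33951999-33956001, minus): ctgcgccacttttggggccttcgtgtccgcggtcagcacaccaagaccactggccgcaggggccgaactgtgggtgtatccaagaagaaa
Gm10260 (chr13:97760072-97760632, minus): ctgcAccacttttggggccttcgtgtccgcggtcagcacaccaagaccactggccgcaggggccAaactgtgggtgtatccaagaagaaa
Gm11361 (chr13:28257528-28258134, plus): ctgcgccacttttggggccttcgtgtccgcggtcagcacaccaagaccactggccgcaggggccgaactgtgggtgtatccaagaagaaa
With positions counted from 1 at the first coding base of Rps18 and the base of Rps18 first, Gm10260 had T186C, A337C, G371A and G431A, of which the last 2 lie in the stretch. Gm11361 had T11A, A171C and A337C and no difference in the stretch. Over the coding bases, the copies were identical to Rps18 at 99.1% and 99.3%.

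Gm10260 and Gm11361 together were counted in nmSC at 30.2, 6.18 and 56.6 CPM in C57BL/6, at 1319 and 1450 CPM in NOD control, and at 1205, 1450 and 1227 CPM with the knockout label. The copies held 0.407% to 3.85% of the joint UMIs in C57BL/6 and 96.2% to 100% in the 5 NOD samples. Summed over Rps18 and both copies, nmSC had 2672, 1519 and 1472 CPM in C57BL/6 and 1370 and 1495 CPM in NOD control, so that the ranges overlapped. The log2 fold change of the sum was −0.53 in nmSC (adjusted p = 0.756, edgeR), and between −0.67 and −0.41 in the other 4 sets, where it did not pass either (adjusted p = 0.856 to 0.999, edgeR). In lymphoid cells Rps18 fell from 8971, 6846 and 8950 CPM in C57BL/6 to 140 and 134 in NOD control, and the copies rose from 82.8, 24.4 and 40.3 to 5604 and 7349. Whether the reads of NOD cells match these copies better than Rps18 cannot be read from counts and was not tested. Read length can matter for telling near-identical copies apart. Libraries were read at 57 or 150 bases, which of the 2 for a given library is not stated in the labels, and its part in the member and copy counts was not tested.

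For Rps27 and Rpl10 the sum of the member and its copy was lower as well in nmSC. Rps27, a zinc finger protein of the small subunit, was at 5843, 2781 and 2514 CPM in nmSC of C57BL/6 and at 139 and 312 in NOD control. Its copy Rps27rt (chr9:114982366-114982739), with identical coding bases, was at 151, 48.9 and 136 CPM in C57BL/6 and at 206 and 692 in NOD control. Their sum was still lower in NOD control, 345 and 1004 CPM against 5993, 2830 and 2650, with a log2 fold change of −2.65 (adjusted p = 0.00886, edgeR). Rpl10, an X-linked protein that joins the large subunit last, was at 3306, 1336 and 1291 CPM against 143 and 130. Its copy Rpl10-ps3 (chr9:50344201-50344968) rose from 196, 38.2 and 56.6 to 489 and 491 CPM, and the log2 fold change of their sum was −1.86 (adjusted p = 0.0364, edgeR). In fibro, EC, myeloid and lymphoid cells the Rpl10 sum was lower without passing (adjusted p = 0.153, 0.153, 0.271 and 0.359, edgeR). The Rps27 sum passed in fibro (adjusted p = 0.035, edgeR) but not in EC (0.0918) or myeloid cells (0.181).

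Rpl21 had a copy that did not rise: BC004004, identical to it at 98.5% of coding bases, was at 113, 95.5 and 90.6 CPM in C57BL/6 nmSC and at 100 and 82.6 in NOD control. Rpl21 itself was at 1525, 842 and 645 CPM against 92.8 and 128. By coding sequence (at least 90% identity over at least 80% of the length), 21 members had 29 such copies among the features. The build named in the submitters' processing notes, mm10, is an assembly of the C57BL/6J strain, and UMIs of copies outside its features would not be seen.

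**Figure D3:**
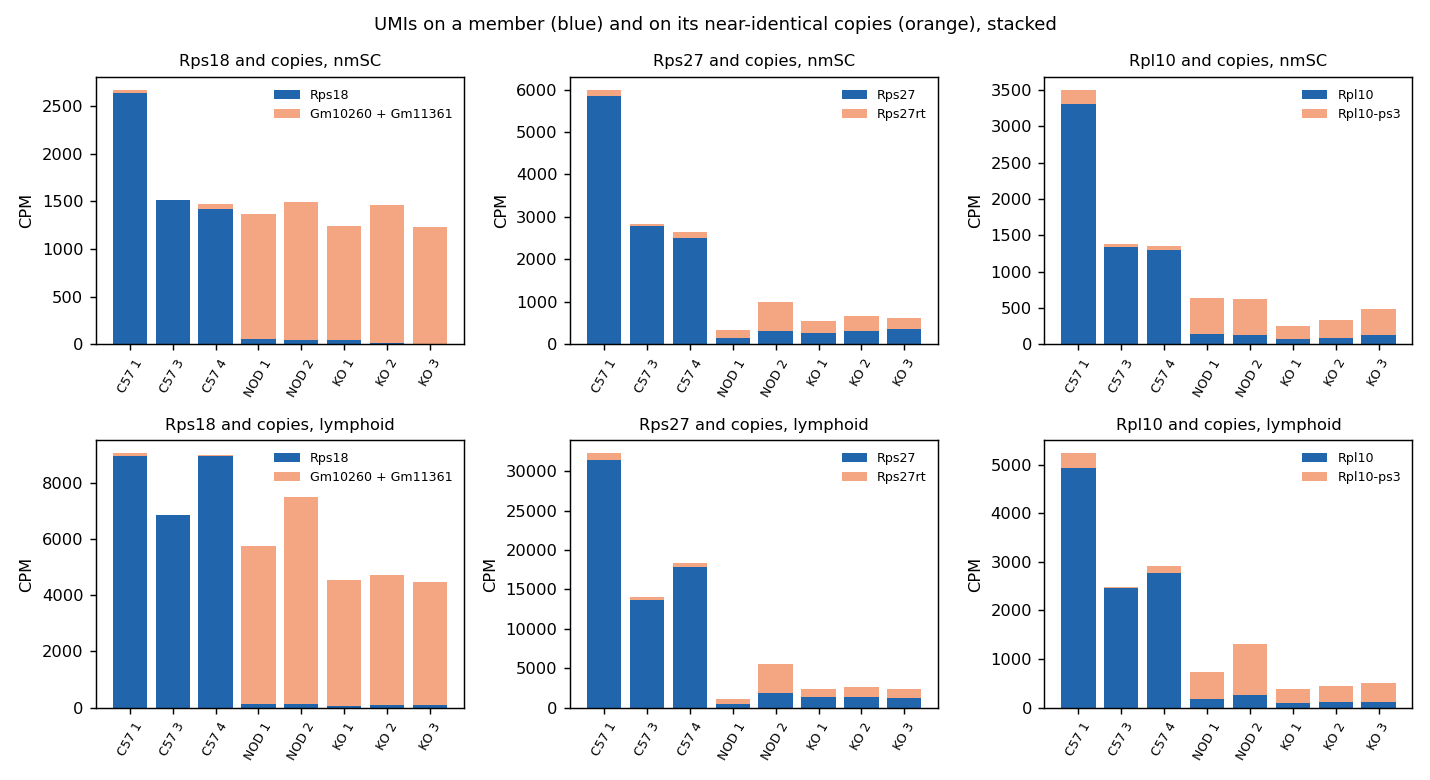
Level in CPM (vertical axis, from 0) of Rps18, Rps27 and Rpl10 (blue) and of their copies (orange, stacked) in each sample, in nmSC (top) and lymphoid cells (bottom). The copies hold nearly all UMIs of the Rps18 family in the 5 NOD samples (labelled NOD and KO), while the stacked bars of Rps27 and Rpl10 stay below those of C57BL/6.

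Counted as members alone, 10 of 80 were lower in NOD control than in C57BL/6 in nmSC (0.897% of 7691 genes were), 9 of 80 in fibro (0.879% of 4780), 8 of 79 in EC (1.05% of 2091), 6 of 79 in myeloid cells (0.652% of 1687) and 7 of 79 in lymphoid cells (1.02% of 2343). No member was higher in any set, by edgeR or by the DESeq2 Wald test. By unadjusted p below 0.05 in edgeR 20, 14, 12, 13 and 11 members differed in either direction. The percentage of all genes at that unadjusted threshold is not reported here. Rps18, Rps12, Rpl10, Rpl21 and Rpl27 were lower in all 5 sets. In nmSC their log2 fold changes were −5.39, −4.57, −3.99, −3.32 and −4.17, followed by Rps27 at −4.18, Rpl29 at −3.04, Rps2 at −2.95, Rpl39 at −2.23 and Rpl22l1 at −1.46. When each member was summed with its copies by coding sequence, an alternative chosen after seeing the data, 9, 7, 2, 0 and 2 members were lower in the 5 sets in the order above. The percentages of all genes lower with copies summed are not reported here.

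The remaining members showed a smaller shift that rested on 1 library. The median log2 fold change over members was −0.44 in nmSC, −0.61 in fibro, −0.43 in EC, −0.60 in myeloid cells and −0.79 in lymphoid cells. Without C57BL/6 library 1 it was 0.04, 0.07, 0.02, −0.06 and −0.07, with 10, 10, 8, 9 and 8 members lower. The percentages of all genes lower without that library are not reported here. In that library 78 of 79 members with at least 100 CPM in nmSC were above the mean of C57BL/6 libraries 3 and 4, with a median ratio of 2.30, from 0.705 for Rpl22l1 to 4.06 for Rps21. Of 1326 other genes at that level 545 were higher (median ratio 0.892). In lymphoid cells 76 of 79 members were higher (median ratio 1.89), against 151 of 1165 others. The ribosomal protein share of NOD control minus C57BL/6 was −3.29 percentage points in nmSC (exact two-sided permutation p = 0.6) and −11.7 in lymphoid cells (exact p = 0.3), where the smallest possible p is 0.1. Leaving out NOD control 1 left 1 lower member in myeloid cells, and leaving out NOD control 2 left 0. In lymphoid cells it was 0 without either, and in EC 5 and 3, respectively. It was 2 in myeloid cells without C57BL/6 library 3 and 2 in lymphoid cells without C57BL/6 library 4.

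The comparison of the knockout label with NOD control sets NOD libraries labelled as lacking ICAM-1 against those of NOD control mice. It uses the same NOD control samples as the strain comparison. The ribosomal protein share was lower with the knockout label in lymphoid cells, 15.98% ± 0.269 (SD, n = 3) against 24.4% ± 1.54 (SD, n = 2), a ratio of 0.654. It was also lower in myeloid cells, 10.4% ± 0.257 against 12.9% ± 0.751, in EC, 12.9% ± 0.770 against 14.6% ± 0.338, and in nmSC, 6.14% ± 0.276 against 7.09% ± 0.129. The groups did not overlap in these 4 sets, and p was 0.1 in each exact permutation test (two-sided), which 3 against 2 samples cannot go below. In mySC the difference was 0.146 points (exact permutation p = 0.9), and leaving out NOD control 2 made it −2.02 and leaving out NOD control 1, with 20 such cells, 2.31.

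The lower share in lymphoid cells was seen within each annotated lymphocyte type with enough cells. CD4 cells had 16.3% in all 3 libraries with the knockout label against 21.7% to 28.7% in the NOD control libraries. CD8 cells had 13.7% to 14.8% against 22.9% and 29.1%, and B cells 17.2% to 18.3% against 23.5% and 25.8%. For CD8 and B cells the control values are libraries 2-1 and 2-2 of NOD control 2, which count as 1 sample. Marker levels of the lymphoid set also moved with the label. The 4 T cell markers summed to 5020 to 5226 CPM with the knockout label and to 490 and 1269 in NOD control. The 3 NK cell markers summed to 3313 to 3529 against 490 and 239, and the 4 B cell markers to 1145 to 1359 against 1821 and 3025. Haemoglobin genes were at 4633, 149 and 3532 CPM in the 3 libraries labelled knockout and at 315 and 88.3 in NOD control. The part of lymphocyte subtypes and red cell RNA in the result was not tested beyond the values within types.

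By gene, 29 of 80 members were lower and 1 higher in lymphoid cells with the knockout label, where 8.86% of 8999 genes were lower and 10.5% higher. The member median was −0.64, against 0.03 over all genes. Rpl21 led, at 280 and 356 CPM in NOD control and 118, 127 and 139 CPM with the knockout label, a log2 fold change of −1.62 ± 0.19 (SE, adjusted p = 8.17e-14, edgeR). Rpl10 fell by 1.49, Rps2 by 1.34 and Rps12 by 1.23 on the log2 scale. Rpl5 fell by 1.20 (SE 0.26). It was at 1191 and 781 CPM in NOD control and at 406, 386 and 386 with the label, with no overlap. Of the members linked to Diamond-Blackfan anaemia 8 of 16 fell (median −0.77), and of the stalk proteins 1 of 3, Rplp1 at −0.90 ± 0.29.

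The lymphoid count depended on single libraries. It was 79 members (77 lower) without NOD control 1, whose lymphoid cells numbered 49, and 17 (10 lower) without NOD control 2. It was 10 to 12 without any 1 library with the knockout label, 0 with these 3 libraries summed as 1 sample, and 3 with the DESeq2 Wald test. With control libraries 2-1 and 2-2 as separate samples it was 50, and 0 with the replicate number as a block. In B cells alone NOD control 2 was the single control sample, and the count of members passing is not given. Fits without NOD control 1 or 2 also had a single control sample. The percentage of all genes called in these alternatives is not reported here. The share in B cells was 7.12 points lower with the label.

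In myeloid cells 29 of 79 members were lower and 1 higher (8.28% and 8.11% of 3514 genes), with a member median of −0.51 against 0.04 over all genes. Marker levels of this set moved with the label too. The 6 myeloid markers summed to 21130, 15820 and 18740 CPM with the label and to 35300 and 30840 in NOD control. The 3 plasmacytoid dendritic cell markers summed to 1683, 1604 and 993 CPM against 493.5 and 400.8. The 4 T cell markers summed to 133 to 309 CPM against 0 and 29.3. The part of cell make-up in the myeloid falls was not tested. Rpl10 fell by 1.49 (SE 0.27) on the log2 scale. It was at 280 and 249 CPM in NOD control and at 86.7, 107 and 119 with the label, with no overlap. C57BL/6 myeloid cells had 5447, 2509 and 2609 CPM, far above both NOD groups. Rpl21, Rps2, Rpl29 and Rps12 were likewise among the members lower in NOD control than in C57BL/6 in nmSC. Some copies moved with the label too: in myeloid cells Rpl10-ps3 fell by 1.38 and Gm11361 by 1.17 on the log2 scale, and in lymphoid cells by 1.47 and 1.69 (all past the threshold). Gm10260, the copy with the most UMIs, did not pass in myeloid cells (−0.10, adjusted p = 0.777, edgeR) or lymphoid cells (−0.30, adjusted p = 0.524, edgeR). Over 15 alternatives, summed copies included, Rpl10 ran from −1.6 to −1.34 in myeloid cells. Rps2 ran from −1.79 to −0.87, Rpl29 from −1.45 to −0.71 and Rpl21 from −1.19 to −0.773. The part of copies in the falls of members was not tested further. Rps2, Rpl29 and Rpl21 fell by 1.28, 1.07 and 1.04. Of the 4 MDM2-binding large subunit members 3 fell (median −0.78), Rpl5 at −0.92 ± 0.25 and Rpl11 at −0.91 ± 0.19 among them. The myeloid and lymphoid lists shared 18 lower members, 62.1% of each list, and both used the same libraries. The myeloid count was 13, 12 and 16 without libraries 1, 2 and 3 of the knockout label, 12 with DESeq2, 9 with the replicate block and 1 with the knockout libraries summed.

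In nmSC 3 of 75 members were lower and 1 higher (1.52% and 2.38% of 2101 genes), with a member median of −0.29 against 0.02. Among the lower members was Rps20 at −0.88 ± 0.21 (SE). It was at 627 and 509 CPM in NOD control and at 284, 365 and 283 with the label, with no overlap. The 4 T cell markers summed to 182 to 290 CPM in nmSC with the label and to 3.76 and 48.8 in NOD control, and the part of RNA from other cells was not tested. The nmSC total of 4 became 17 without NOD control 1, 24 without NOD control 2, and 0, 0 and 1 without libraries 1, 2 and 3 of the label. In EC 0 of 72 members passed either way (2.6% of 538 genes did), while 12 had an unadjusted p below 0.05 by edgeR and 0 passed with DESeq2. The percentage of all EC genes at that unadjusted threshold is not reported here. Leaving out NOD control 1 gave 3 members in EC, and leaving out NOD control 2 gave 1. The 5 Schwann cell markers summed to 6182 to 7996 CPM in mySC with the label and to 20160 and 22560 in NOD control. The 4 T cell markers summed to 201 to 434 CPM there against 0 and 32.4, and the part of cell make-up was not tested. The mySC of NOD control 1, 20 cells, held 4 UMIs of Rpl22l1 and 6 of Rpl39. In mySC 2 of 73 were higher, Rpl22l1 and Rpl39 (5.61% of 1711 genes), with a member median of 0.00 against 0.02. That count ran from 10 without NOD control 1 to 0 without library 3 of the knockout label.

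Rpl22l1, a paralog of Rpl22 with 70.2% identical coding bases that can take its place in the large subunit, was higher with the knockout label in 4 of 5 sets. In nmSC it was at 402 and 364 CPM in NOD control and at 922, 887 and 904 CPM with the knockout label. This is a log2 fold change of 1.22 ± 0.19 (SE, adjusted p = 0.00537, edgeR). In myeloid cells it was at 314 and 313 CPM against 798, 844 and 850 (1.24 ± 0.21, adjusted p = 9.01e-04, edgeR). In lymphoid cells it was at 771 and 679 CPM against 1639, 1640 and 1726 (1.22 ± 0.31, adjusted p = 0.00145, edgeR), and in mySC it rose by 1.5 ± 0.34 (adjusted p = 0.0045, edgeR). The groups did not overlap in these 4 sets. In EC they did, at 784 and 333 CPM against 773, 710 and 935, and the gene did not pass (0.84 ± 0.35, adjusted p = 0.218, edgeR). C57BL/6 samples had 747 to 1148 CPM in nmSC and 1364 to 2231 in lymphoid cells, so NOD control was the lowest of the 3 groups in both. The gene had no near-identical copy among the features by the rule above. Its rise did not pass in nmSC without library 1 or 2 of the knockout label, nor in mySC without NOD control 2 or library 3 of the label. With the knockout libraries summed as 1 sample it did not pass in nmSC (adjusted p = 0.775), mySC (0.336) or lymphoid cells (0.9998, edgeR). With the replicate block it did not pass in mySC (0.123) or lymphoid cells (0.515, edgeR), and in mySC it also did not pass with DESeq2 (0.0879) or without the filter on low counts (0.0913). In myeloid cells it passed under each of these alternatives.

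Rpl22 itself was lower with the label without passing, at 1016 and 997 CPM in NOD control lymphoid cells and at 675, 637 and 588 with the label (−0.68 ± 0.28, adjusted p = 0.0725, edgeR). Rpl39, a short X-linked protein at the exit of the peptide tunnel, was higher in mySC, at 458 and 286 CPM against 893, 685 and 961 (1.25 ± 0.30, adjusted p = 0.00623, edgeR). There Rpl39 rested on 6 UMIs in 20 cells in NOD control 1, and it lost the call in 6 of 15 alternatives. In nmSC it was at 460 and 437 CPM against 699, 671 and 823 without passing (0.68 ± 0.19, adjusted p = 0.0705, edgeR).

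**Figure D4:**
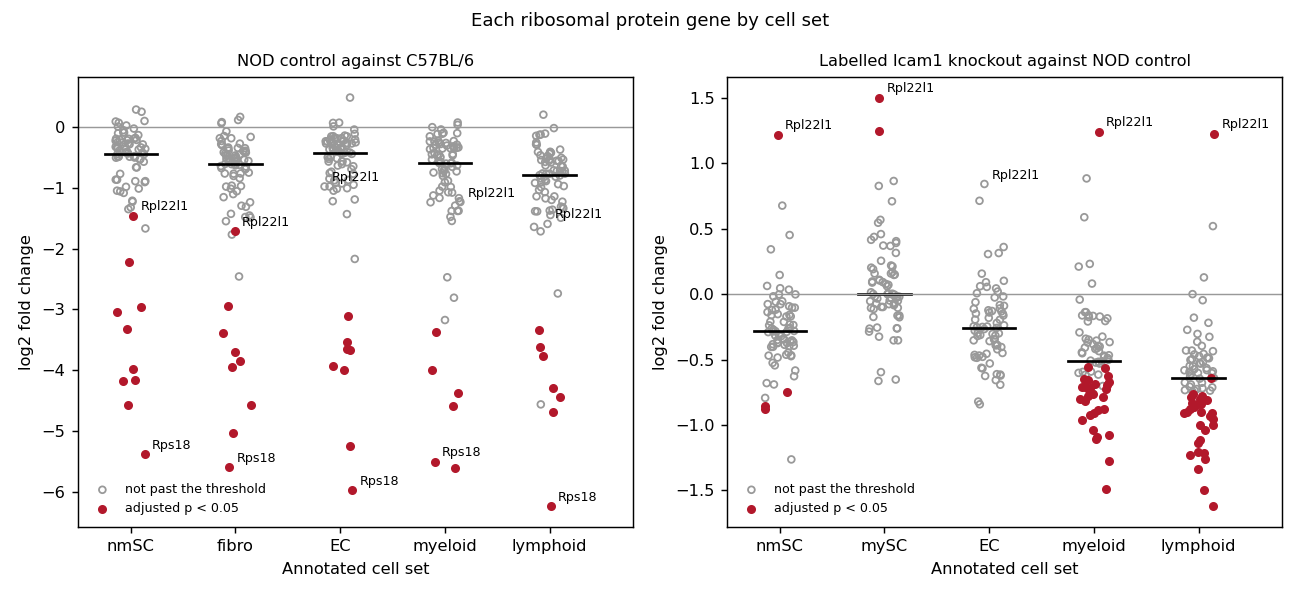
Log2 fold change of each ribosomal protein gene by cell set (vertical axis) for NOD control against C57BL/6 (left) and the knockout label against NOD control (right), which share the NOD control samples. Black bars are member medians and filled points passed the adjusted threshold. Rps18 lies at −5.39 to −6.24 on the left, and Rpl22l1 lies above the other members on the right.

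**Figure D5:**
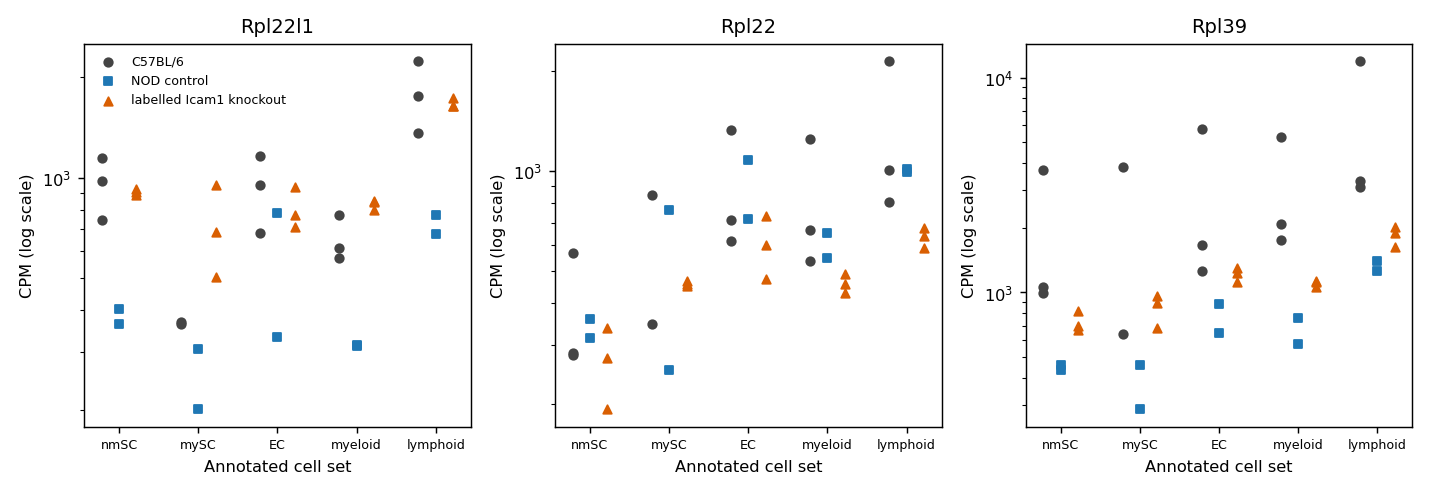
Level in CPM (log axis) of Rpl22l1, Rpl22 and Rpl39 in each sample of 5 cell sets, coloured by group. NOD control has the lowest Rpl22l1 in nmSC, mySC, myeloid and lymphoid cells, whereas Rpl22 in lymphoid cells is lowest with the knockout label.

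Other translation genes are given by list, beside the 8.86% of all genes that were lower and 10.5% that were higher in lymphoid cells. There 3 of 18 other TOP mRNAs were lower (median −0.38), led by Rack1, a scaffold of the small subunit, at −0.88 ± 0.27, with Eef1b2 at −0.78 ± 0.23. Fau fell by 0.78 (SE 0.29). Proteins of the mitochondrial ribosome had 2 higher and 8 lower of 76 (median −0.32), and nucleolar assembly factors 1 higher and 3 lower of 22 (median −0.25). For the mitochondrial ribosome the count of lower genes lies near the share over all genes. The lists of other TOP mRNAs and nucleolar factors are small, and their counts were not tested against that share. Of the translational regulators 3 of 15 were higher and 2 lower, with a median of 0.53. In myeloid cells Rack1 fell by 1.14 (SE 0.22) and Fau by 0.89 (SE 0.17).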

How the data were processed

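Droplet 3′ single-cell libraries of mouse nerve (9) and rat nerve (2) were used. UMI counts by gene and barcode were deposited, 1 matrix per species, with a cell type name for 15672 of 16050 mouse and 12360 of 12500 rat barcodes, and only named cells entered comparisons between cell sets. Cell Ranger 3.0.2 and the builds mm10 and Rnor_6.0 are named, per the submitters' processing notes. For clustering, doublet removal and correction for free RNA the sources used here give no method, and no doublets were removed here. Sequencing ran on a NextSeq 500 or a NovaSeq 6000 per the labels' protocols, and the machine used for a given library is not stated there.

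Counts were added up over the cells of a set in each sample (Python 3.11.15, pandas 2.3.3, scipy 1.17.1). Samples with fewer than 20 cells of a set were left out of its comparison of types, and a comparison of groups needed 20 in each sample. Fibro and mural cells therefore had no knockout comparison. CPM are UMIs on a gene per 1000000 UMIs of the set. The quasi-likelihood test of edgeR 4.0.16 (R 4.3.3) was run with TMM factors after filterByExpr (minimum count 10), with Benjamini-Hochberg adjustment over all tested genes and a threshold of 0.05. It was tested on simulated data. Shares were compared by exact permutation. Alternatives were DESeq2 1.42.0, RLE factors, scaling on other genes, no filter, no mitochondrial genes, summed copies, control libraries 2-1 and 2-2 apart, knockout libraries summed, B cells alone, medians over cells, the replicate block and leaving out each sample.

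Genes named were, in each direction, up to 6 members past the threshold in order of fold change (mean log2 CPM 5 or more, groups not overlapping), the listed paralogs and role groups, members with copies, and up to 4 genes of each other list. The members and lists were chosen with earlier results of these data known. Copies were found by symbol or, as added later, with blastn 2.17.0 on GENCODE M21 coding sequences. Start site sequences are from RefSeq (GRCm38.p6), matched by symbol for 63 of 83 members. Values of some named genes are not reported here.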

Additional observations from a re-analysis of the deposited data

How the results depend on the processing

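The higher levels in lymphoid cells, myeloid cells and EC than in nmSC kept their direction and stayed within 1.5 times of their counts under every alternative run, leaving out each sample included (78 to 79, 74 to 77 and 68 to 75 members called). Of 377 alternatives for 23 named results of these comparisons, each a gene in 1 cell set, 376 kept direction and call and 1 lost the call.

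The counts of the knockout comparison were unstable, and the cause was not tested. Leaving out 1 sample gave 0 to 24 members called in nmSC (4 with all samples), 0 to 10 in mySC (2), 0 to 3 in EC (0), 12 to 37 in myeloid cells (30) and 10 to 79 in lymphoid cells (30). With the replicate block the counts were 1 in nmSC, 0 in mySC, 0 in EC, 9 in myeloid cells and 0 in lymphoid cells. The groups share only numbers 1 and 2, and the block leaves few degrees of freedom. Deviations of same-numbered samples correlated at 0.109, −0.0864, −0.0173, 0.0351 and 0.018 over genes in these sets. With 1 difference of number 1 minus number 2 per group, this cannot tell whether same-numbered samples share more than a number. With the knockout libraries summed as 1 sample the counts were 0, 0 and 0 in nmSC, mySC and lymphoid cells and 1 in myeloid cells. DESeq2 called 0 in mySC, 12 in myeloid cells and 3 in lymphoid cells. In mySC the count was 5 without mitochondrial genes and 0 without the filter on low counts. With control libraries 2-1 and 2-2 apart it was 7 in mySC and 50 in lymphoid cells. Of 323 alternatives for 21 named results of this comparison 240 kept the call, 81 lost it and 2 reversed. Both reversals were of Rps27l in lymphoid cells, called at −0.64 with overlapping groups, which was 0.035 with the replicate block and ran from −0.73 to 2.59 (without NOD control 2) when 1 sample was left out.

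In the strain comparison, members called lower in EC numbered 8, and 4 with copies summed by symbol or 2 by coding sequence. In myeloid cells 6 became 3 with RLE factors, 3 with scaling on genes that are not members, 1 and 0 with copies summed by symbol and by coding sequence, and 10 with control libraries apart. In lymphoid cells 7 became 4 and 2 with copies summed. Leaving out 1 sample gave 3 to 8 in EC, 0 to 9 in myeloid cells and 0 to 8 in lymphoid cells. Of 435 alternatives for 33 named results 348 kept the call, 87 lost it and 0 reversed.

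Among shares, leaving out 1 sample moved the knockout difference between −2.02 and 2.31 points in mySC, −2.96 and −1.90 in myeloid cells and −9.55 and −7.36 in lymphoid cells, and B cells alone gave −7.12. The mySC difference from nmSC was −0.148 points as a median over cells, and the fibro difference was 8.36 points with control libraries apart, then past the threshold. Depth limits the sets with few UMIs most, such as 13094 UMIs in mySC and 28549 in lymphoid cells of NOD control 1.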
